A study of Mus musculus with 3 samples.

Results

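Interferon receptors, the STAT2 and IRF factors that act downstream of them, interferon-stimulated genes and the immunoproteasome subunits were examined in ribosome-associated RNA of the mouse heart endothelium. The set holds 42 genes, chosen by name, and all 42 were listed among the 17583 genes of the deposited table. RNA came from the hearts of 3 EC-RiboTag mice (genotype Cdh5-CreERT2;Rpl22tm1.1Psam), in which a Cre recombinase under the endothelial Cdh5 promoter, activated by tamoxifen, switches on an HA-tagged ribosomal protein, so that ribosomes of Cre-expressing cells and the RNA bound to them can be pulled down with anti-HA beads. All 3 mice belong to a single group. The sample labels place the hearts at day 7 after coronary ligation, whereas the methods of the study describe this RiboTag experiment without infarction, and the labels do not spell out the letters Rz in the library titles. Elsewhere the study writes RZ for the remote zone of infarcted hearts, and it used EC-RiboTag hearts divided into zones at that time after infarction for another assay, so whether whole hearts or that zone were sequenced cannot be told apart here. The labels give no age or sex. No input and no untagged control was analysed here, so levels could be compared between genes and between mice but not between conditions, and enrichment over the whole heart could not be measured.

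The values are normalized counts, which rest on about 7319000, 6754000 and 7566000 reads in mice 1, 2 and 3. All 12 markers of endothelial cells were listed, with a median of 672 ± 21.0 normalized counts per kb of canonical transcript (SD, n = 3 mice), against 28.6 ± 8.60 for the leukocyte markers, of which 16 of 18 were listed and none was at 0 in every mouse. RNA of other cells was present too: the 10 cardiomyocyte markers had a median of 565 ± 18.9 per kb, the 8 fibroblast markers of 101 ± 20.8 and the 8 mural cell markers of 46.0 ± 5.62. A level therefore belongs to the immunoprecipitate as a whole, and more cells of a type cannot be told apart from more RNA per cell. Mouse 1 had the lowest sums of leukocyte, fibroblast and mural cell markers and stood apart in the sex-linked genes Xist (4, 618 and 869 normalized counts in mice 1, 2 and 3) and Ddx3y (1080, 3 and 1). By these genes mouse 1 was male and mice 2 and 3 were female.

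Type I interferons signal through a receptor made of IFNAR1 and IFNAR2, and interferon gamma through IFNGR1 and IFNGR2. The receptor-bound kinases JAK1, JAK2 and TYK2 phosphorylate STAT proteins. A complex that holds STAT2 and IRF9 binds the interferon-stimulated response element (ISRE) in promoters, while the response to interferon gamma runs through the gamma-activated site (GAS). The induced genes block viral entry, translation and replication, and enlarge the supply of peptides for antigen presentation. In many cells weak signalling keeps part of this programme on without infection, and the endothelium, which lies between blood and tissue, is one of the cell types that respond to interferon.

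The set stood high among the genes of the table. Divided by transcript length, the median member had 273 ± 19.8 normalized counts per kb (274, 293 and 253 in mice 1, 2 and 3), against 72.7 ± 1.91 for the median of all genes, a ratio of 3.75. In all, 41 of 42 members lay above the median gene, 33 in the top 25% and 16 in the top 10%, and Irf8 was the member below it. Irf8 was at 69.0 per kb over the canonical transcript but at 123 over the length within the deposited gene bounds (clipped length), and all 42 members then lay above the median gene. All 7 role groups had a median above that of all genes, from 188 ± 2.27 per kb for the PARP/DTX3L genes and 193 ± 23.1 for the IFIT genes to 377 ± 28.9 for the GTPases and 457 ± 50.6 for the immunoproteasome subunits. The medians of the PARP/DTX3L and IFIT groups differed by less than the spread between mice. The order of the groups depended on length: over joined exons the factors were lowest, with a log2 ratio of their median to that of all genes of 1.81, and the IFIT genes (2.06) lay above the GTPases (2.02), while the immunoproteasome stayed highest (2.42). The medians over joined exons are given without their spread between mice, so small steps in that order are uncertain. These ranks describe a set chosen with the data known and carry no test.

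**Figure D1:**
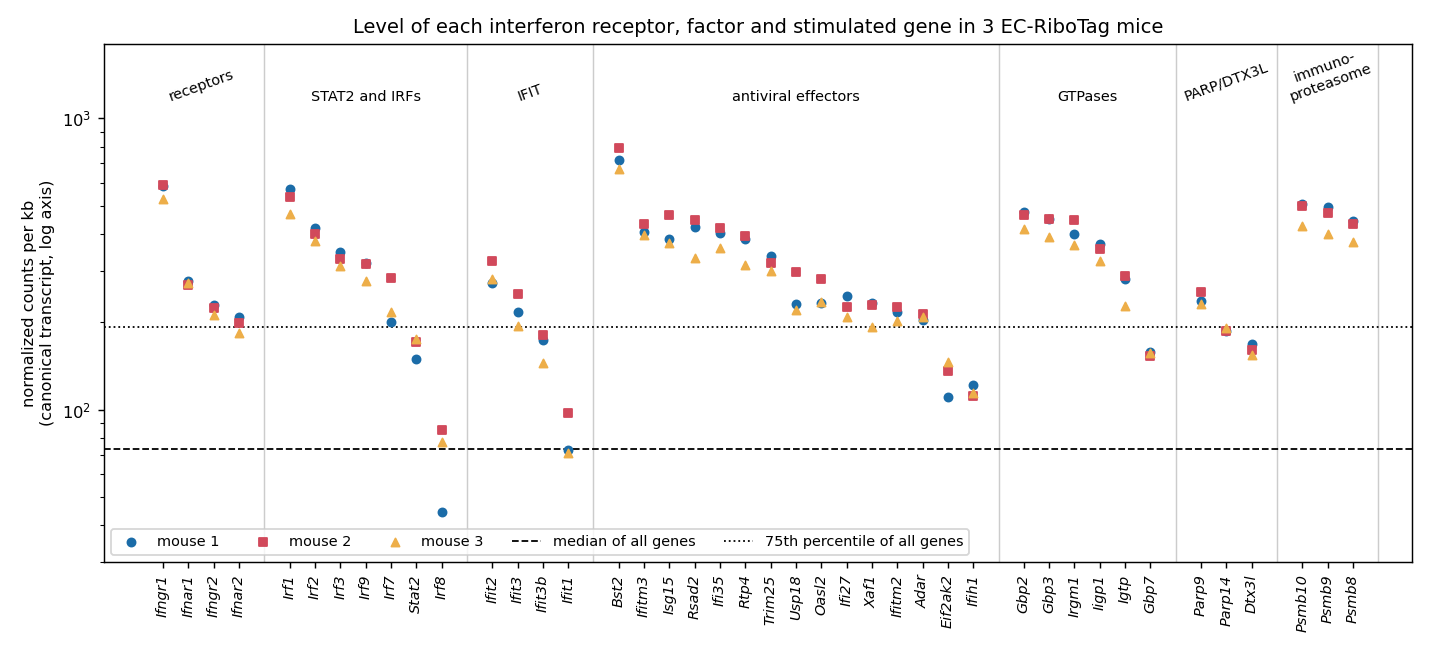
Normalized counts per kb of canonical transcript (log axis) of the 42 genes, grouped by role and ordered by mean within each group, with 1 point per mouse. The dashed line is the median over all genes of the mean of the mice (73.0) and the dotted line their 75th percentile (192), and only Irf8 has its mean (69.0) under the dashed line.

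All 4 receptor chains were abundant and varied less between mice than the median member. Ifnar1, which binds the kinase TYK2, had 1127, 1099 and 1114 normalized counts in mice 1, 2 and 3, and Ifnar2, the chain that binds type I interferon with the higher affinity, had 684, 654 and 602. Ifngr1, the ligand-binding chain for interferon gamma, had 1233, 1243 and 1119, and Ifngr2, which brings in JAK2, had 863, 837 and 792. The mice lay close together for Ifnar1, with a coefficient of variation (CV, the SD in percent of the mean) of 1.26%. The CV was 4.32% for Ifngr2, 5.75% for Ifngr1 and 6.42% for Ifnar2, against 8.24% for the median member. Read counting alone was estimated to give 3.00% for Ifnar1, 3.47% for Ifngr2, 2.89% for Ifngr1 and 3.93% for Ifnar2. The CV of Ifnar1 thus lay under its counting error and does not show how far the mice differ. Mouse 3 was lowest for Ifnar2, Ifngr1 and Ifngr2. Per kb, Ifngr1 led with 567 ± 32.6, rank 359 of the table, followed by Ifnar1 with 272 ± 3.42, Ifngr2 with 221 ± 9.55 and Ifnar2 with 196 ± 12.6. Each step of that order was wider than the sum of the SDs of the 2 genes, the last one only just.

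Ratios of paired genes were taken within each mouse, for 11 pairs in all. Ifngr1 was 2.57-fold above its partner Ifngr2 per kb (log2 ratios 1.35, 1.40 and 1.33 in mice 1, 2 and 3) and 2.08-fold above Ifnar1 (log2 ratio 1.06 ± 0.09, SD, n = 3). Ifnar1 was 1.39-fold above Ifnar2, with log2 ratios of 0.41, 0.44 and 0.57 in mice 1, 2 and 3. The first 2 ratios had the same direction under every length used, but the ratio of Ifnar1 to Ifnar2 became -0.33 when all annotated exons of each gene were joined, since the joined exons add unequal length to the 2 genes. In 10 of the 11 pairs all mice had a ratio of the same sign. For such a pair an exact two-sided permutation test that flips signs gives p = 0.25, the smallest that 3 mice allow, and 0.275 after Benjamini-Hochberg adjustment over the 11 pairs, so none of the ratios could pass a threshold of 0.05.

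Among the transcription factors, Irf1 and its antagonist Irf2 were the highest over canonical transcripts. Irf1, which activates interferon-stimulated and MHC class I genes, had 1219, 1149 and 1001 normalized counts in mice 1, 2 and 3 (526 ± 52.1 per kb). Irf2, which competes with IRF1 for its sites, had 1053, 1006 and 954 (399.8 ± 19.7 per kb). Both were highest in mouse 1 and lowest in mouse 3, and Irf1 exceeded Irf2 per kb by 1.31-fold (log2 ratio of Irf2 to Irf1 -0.39 ± 0.08). Over joined exons Irf1 exceeded Irf2 by 2.67-fold, and Irf2 (89.8 per kb) lay under Irf3 (196), Irf7 (148), Irf9 (146) and Stat2 (118). Irf3, the factor that starts the type I interferon response from stores already in the cell, had 717, 683 and 643, and Irf7, which is itself interferon-stimulated and amplifies the response, had 478, 679 and 520. Irf3 lay above Irf7 per kb by 1.43-fold on average, but the log2 ratio ranged from 0.22 in mouse 2 to 0.80 in mouse 1.

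The RNAs of the DNA-binding and the transactivating part of the interferon-stimulated gene factor were at unequal level per kb of canonical transcript. Irf9 had 886, 880 and 767 normalized counts (303 ± 24.1 per kb), and Stat2 had 671, 766 and 786 (165 ± 13.6 per kb). Irf9 was thus 1.84-fold above Stat2 per kb (log2 ratio 0.88 ± 0.22), with the 2 genes ordered in opposite ways over the mice. The log2 ratio was 0.31 over joined exons and 0.19 without division by length, where Irf9 lay under Stat2 in mouse 3. Irf8, best known as a factor of myeloid and B cells, closed the group with 225, 432 and 393 normalized counts (69.0 ± 21.7 per kb), mouse 1 lying apart from the others.

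The IFIT genes encode proteins that bind foreign RNA and block its translation. Ifit2 headed the family with 1247, 1483 and 1284 normalized counts in mice 1, 2 and 3 (292 ± 27.7 per kb). Ifit1, whose protein recognises RNA caps that lack a host methyl mark, had 541, 723 and 526, which over a long annotated transcript came to 80.4 ± 14.8 per kb. This is a lower figure than the deposited gene bounds give: within those bounds the transcript is shorter by 2.79-fold and the level 225 per kb. Ifit3 had 453, 522 and 403 normalized counts and its near copy Ifit3b had 354, 368 and 296. All 4 genes were highest in mouse 2, though for Ifit3b mouse 2 exceeded mouse 1 by little.

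The levels of Ifit3 and Ifit3b are uncertain. Of the 72-base windows of their transcripts, the length of the reads, 37.4% of Ifit3 and 38.3% of Ifit3b have an exact copy in the other gene, and reads that mapped to several places had been removed. Per kb, Ifit3 was 1.32-fold above Ifit3b (log2 ratio 0.40 ± 0.07), a ratio that shrank to -0.06 over joined exons and widened to 0.63 over clipped lengths. Elsewhere in the set such copies touched 9.94% of the windows of Igtp and 8.92% of those of Ifitm2, and 22 members had none.

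Of the 15 antiviral effectors, Bst2 stood first. It encodes tetherin, which holds budding virions at the cell surface, and had 578, 639 and 541 normalized counts in mice 1, 2 and 3. At 727 ± 61.4 per kb of canonical transcript it was the highest of the 42 members, with rank 104 in the table, but over clipped lengths Ifitm3 (778) passed it (740). The interferon-induced transmembrane proteins block fusion of viruses with endosomes, and Ifitm3 (521, 553 and 508) was above Ifitm2 (214, 222 and 200) by 1.93-fold per kb, with log2 ratios that differed between mice by an SD of 0.03. Over windows without a copy elsewhere the log2 ratio of Ifitm3 to Ifitm2 was 0.80. The group closed with Ifih1, which encodes the RNA sensor MDA5, at 724, 663 and 676 normalized counts and 116 ± 5.40 per kb.

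The remaining effectors lay between these ends. Rsad2, which encodes viperin, an enzyme that makes a chain-terminating nucleotide, reached 402 ± 61.6 per kb, and the ubiquitin-like modifier Isg15 408 ± 50.2. Usp18, the protease that removes ISG15 and also damps the type I receptor, was at 249 ± 41.7 per kb. Adar, the RNA-editing deaminase, was at 208 ± 4.57, and the RNA-activated kinase gene Eif2ak2 at 131 ± 18.0. Trim25, the ubiquitin ligase that activates RIG-I, was at 319 ± 18.5, and Ifi35, Rtp4, Oasl2, Ifi27 and Xaf1 ranged from 218 to 395 per kb of canonical transcript, Ifi27 being at 226 over that length and at 519 over the clipped one. Adar, with a CV of 2.20%, varied least of these genes, while Usp18 and Rsad2 had CVs of 16.7% and 15.3%. The CV of Adar lay under the 2.88% estimated from read counting alone.

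Guanylate-binding proteins and some immunity-related GTPases attack the membranes around intracellular pathogens, and the genes of both families are classic targets of interferon gamma. Gbp2 had 1214, 1179 and 1061 normalized counts in mice 1, 2 and 3 and headed the group at 453 ± 31.6 per kb. Gbp7, with 894, 866 and 885, closed it at 156 ± 2.53. Gbp3 (431 ± 35.1), Irgm1 (404 ± 39.8), Iigp1 (350.0 ± 24.0) and Igtp (266 ± 33.2) lay between them, and Gbp2, Gbp3 and Irgm1 differed by less than the sum of their SDs. In 5 of the 6 genes mouse 3 was lowest, Gbp7 being the exception. Igtp (chr11:58090382-58098417) overlaps its neighbour Irgm2 (chr11:58090444-58113608) on the same strand, and reads over several genes had been left out. Whether this lowered the level of Igtp was not tested.

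PARP9 and its partner DTX3L form a ubiquitin ligase complex, and PARP14 is an ADP-ribosyltransferase of the same family. Parp9 had 841, 898 and 820 normalized counts (240 ± 11.4 per kb), Parp14 had 1400, 1401 and 1430 (188 ± 2.27) and Dtx3l had 888, 852 and 814 (160 ± 6.97). Parp14 had the smallest CV of the 42 members, 1.21%, which is under the 2.66% estimated from read counting alone. Parp9 and Dtx3l overlap by 682 bases on opposite strands, and counting was by strand.

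The immunoproteasome subunits replace their constitutive counterparts at the catalytic sites of the proteasome and shift the cut peptides towards those that MHC class I binds. Psmb8 had 753, 740 and 639 normalized counts in mice 1, 2 and 3, Psmb9 had 672, 641 and 541, and Psmb10 had 668, 656 and 562. All 3 subunits kept one order of mice, highest in mouse 1 and lowest in mouse 3. Per kb they were close to each other, at 418 ± 36.7, 457 ± 50.6 and 479 ± 44.2, and differed by less than the sum of their SDs.

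Set against the subunit each one replaces, the 3 gave unequal ratios. Psmb8 was 3.80-fold above Psmb5 per kb (log2 ratio 1.93 ± 0.05), but 42.9% of the windows of Psmb5 recur exactly at another place in the genome, and the ratio was 2.17-fold over windows without a copy and 2.01-fold over clipped lengths. Psmb9 lay under Psmb6, which was 1.20-fold higher per kb (log2 ratio -0.26 ± 0.07), and the sign turned to 0.12 without division by length. Over canonical lengths Psmb10 and Psmb7 could not be told apart, with log2 ratios of 0.11, 0.02 and -0.11 in the 3 mice (exact sign-flip p = 0.75). Over joined exons, which lengthen Psmb7 more than Psmb10, Psmb10 was 3.96-fold above Psmb7 (log2 ratio 1.99). The constitutive genes had 190, 197 and 173 (Psmb5), 585, 593 and 522 (Psmb6) and 546, 572 and 535 (Psmb7) normalized counts, so that mouse 2 was highest in each of them.

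**Figure D2:**
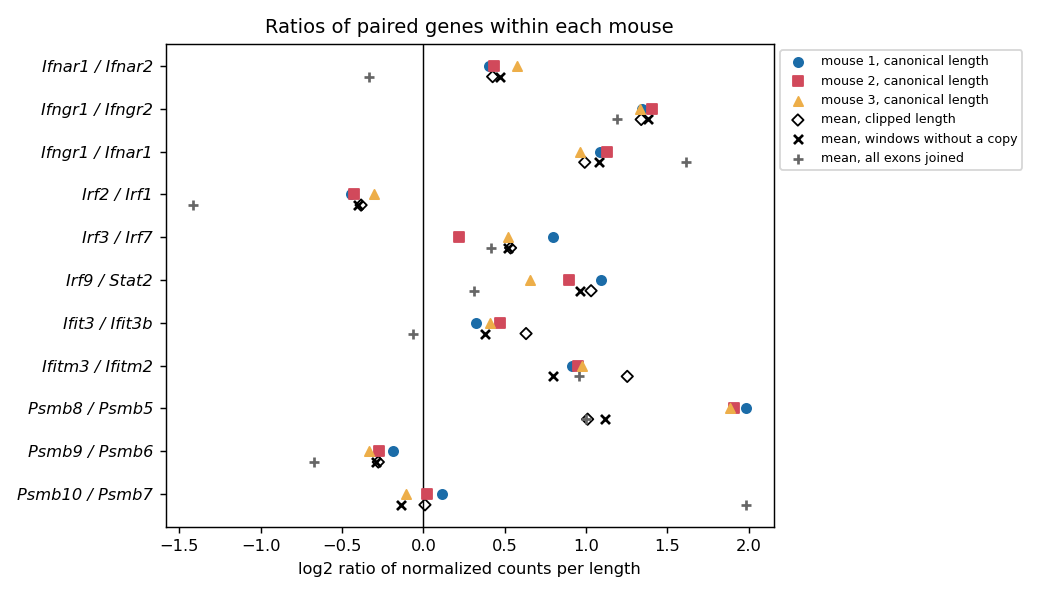
Log2 ratios of normalized counts per length for the 11 pairs of genes, with filled points for each mouse by canonical transcript length and open or crossed marks for the mean under other lengths. Ifngr1 to Ifngr2 (1.33 to 1.40) and Psmb8 to Psmb5 (1.93) keep the side of 0 under every mark, whereas Ifnar1 to Ifnar2 (0.47) and Ifit3 to Ifit3b (0.40) cross it over joined exons (-0.33 and -0.06).

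The rest of the pathway was read from lists of neighbouring genes. Of 20 interferon ligand genes, 1 was listed: Ifnb1, with 0, 6 and 1 normalized counts, which is at the edge of detection. The kinases Jak1 (276 per kb), Jak2 (194) and Tyk2 (142) were all present. The type III interferon receptor was low: Ifnlr1 had 174, 153 and 129 normalized counts (35.8 ± 5.31 per kb) and Il10rb had 21, 25 and 31. All 7 feedback genes were listed, led by the phosphatase gene Ptpn11 (363 per kb), while Socs1, which blocks JAK kinases, was at 48.8 per kb.

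Of 14 sensors of foreign nucleic acid 13 were listed, with a median of 75.6 ± 13.5 per kb, close to that of all genes. The adaptor of cytosolic DNA sensing Sting1 was at 278 per kb, the cytosolic RNA sensor Rigi at 215 and Tlr3, which senses double-stranded RNA in endosomes, at 161. Tlr3 varied little (697, 693 and 701 normalized counts), whereas Tlr7 (2, 15 and 12) and Tlr9 (0, 3 and 4), which mark plasmacytoid dendritic cells and B cells, were near 0. The CV of Tlr3, 0.57%, lay under the 3.79% estimated from read counting alone. Of 54 further interferon-stimulated genes 52 were listed, with a median of 176 ± 9.85 per kb and 34 above the median gene. Ly6e, a cell surface restriction factor, led them at 709 per kb. The 11 genes of MHC class I presentation had a median of 462 ± 33.4 per kb, with H2-K1 (878), H2-D1 (742) and B2m (730) at the top and their activator Nlrc5 at 43.4.

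The members varied between mice about as other genes did. Of the 42 members, 1 had a CV over 20% (Irf8, 31.4%), against 8.00% of the 9358 genes whose mean reached 200, and 14 had a CV over 10%, against 32.1%. The median CV was 8.24% for the members and 7.37% for all these genes. The count over 20% turned on single mice: without mouse 1 it was 3 (Ifit1, Usp18 and Rsad2) and without mouse 3 it was 3 (Irf7, Irf8 and Ifit1). The share of 8.00% is that over all 3 mice and is no background for these counts.

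The mouse with the highest value was not the same in every role group. Of the 42 members, 21 were highest in mouse 2, against 32.2% of genes, and 31 were lowest in mouse 3, against 39.0%. All 4 IFIT genes and 10 of 15 antiviral effectors were highest in mouse 2. By contrast, 3 of 4 receptors and all 3 immunoproteasome subunits were highest in mouse 1. Mouse 1 was the commonest highest mouse among the 9358 genes used for the spread, with 3570, against 3010 for mouse 2 and 2778 for mouse 3. Whether the role groups differ in their highest mouse was not tested. In 8 members (Irf7, Ifit1, Ifit2, Ifit3, Isg15, Usp18, Oasl2 and Irgm1) mouse 2 was above both other mice by over 2 counting errors, against 6.75% of genes. These 8 were named after their values were seen.

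For these genes the values in single mice show the pattern. Isg15 had 301, 364 and 292 normalized counts in mice 1, 2 and 3, Usp18 had 411, 529 and 392, and Oasl2, a relative of the 2′-5′ oligoadenylate synthetases, had 726, 876 and 732. In each of them mice 1 and 3 lay close together and mouse 2 above both. As a log2 ratio of mouse 2 to the geometric mean of mice 1 and 3, with the counting error, Irf7 was at 0.45 ± 0.07, Ifit1 at 0.44 ± 0.07, Usp18 at 0.40 ± 0.08 and Isg15 at 0.30 ± 0.10. The median of all genes was 0.01 with a 5th to 95th percentile range of -0.29 to 0.31, so that Irf8, Irf7, Ifit1 and Usp18 lay beyond the 95th percentile and Isg15 within it. The median member was at 0.10 and the lowest, Ifih1, at -0.08.

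**Figure D3:**
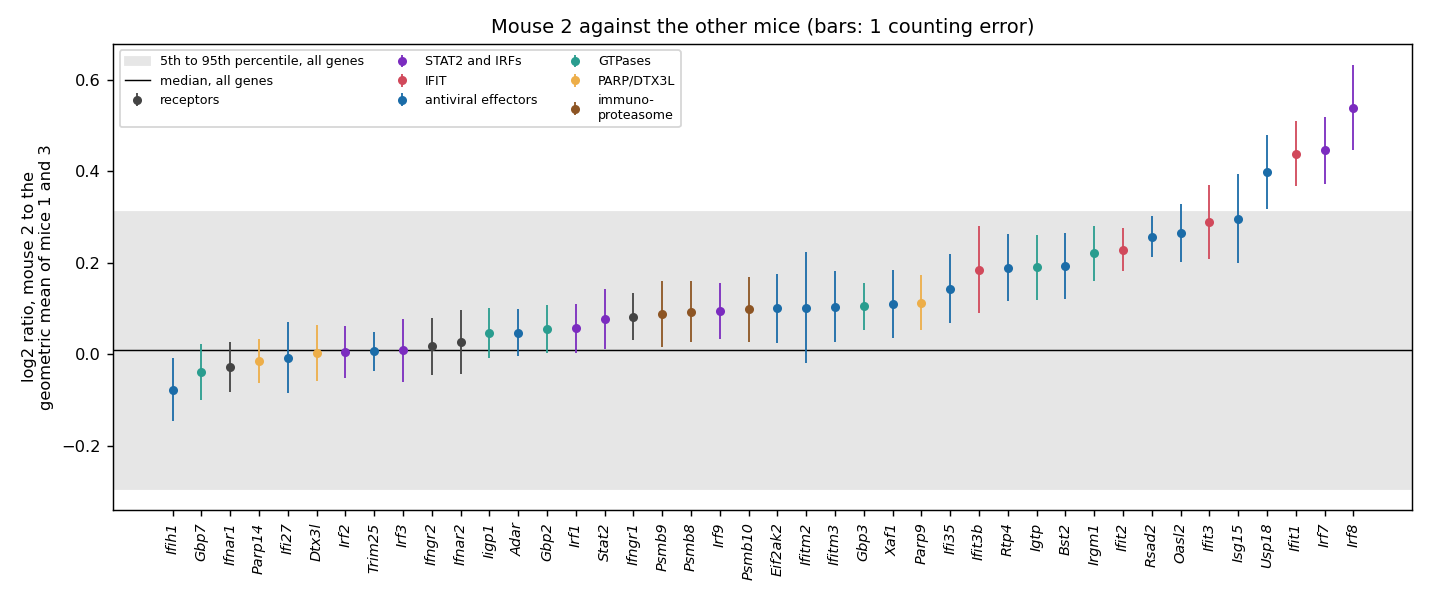
Log2 ratio of the normalized count in mouse 2 to the geometric mean of mice 1 and 3 for each of the 42 genes, coloured by role, with bars of 1 counting error. The grey band spans the 5th to 95th percentile of all genes (-0.29 to 0.31); Irf8 (0.54), Irf7 (0.45), Ifit1 (0.44) and Usp18 (0.40) lie above it.

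Interferon-stimulated genes outside the set were also often highest in mouse 2. Of the 34 further interferon-stimulated genes with a mean of at least 200, 17 were highest in mouse 2 and 12 exceeded both other mice there by over 2 counting errors, against 32.2% and 6.75% of genes. Cxcl10, a chemokine that attracts T cells, had 218, 502 and 299 normalized counts, Oasl1 had 300, 467 and 316, and Mx1 had 17, 78 and 43. With a mean of 46.0, Mx1 is not one of those 34 genes. Mouse 2 was thus above both others in all 3 of these genes, which were picked after their values were seen. Of the 11 class I presentation genes, 7 were highest in mouse 2 and 10 lowest in mouse 3, against 32.2% and 39.0% of genes.

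Transcript length went with these counts in the table as a whole. Among all genes with a mean of at least 200, 64.1% of those with a canonical transcript under 2500 bases were lowest in mouse 3, 37.3% of those of 2500 to 5000 bases and 18.0% of longer ones. Among the members the corresponding counts were 18 of 19, 10 of 15 and 3 of 8. The share highest in mouse 2 was 43.2%, 31.5% and 22.9% of all genes, and 13 of 19, 5 of 15 and 3 of 8 members. The part of length in the members' counts was not tested, and the bins were set after values were seen.

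Irf8 was the member that varied most, and several marker lists shared its lowest mouse. It had 225 normalized counts in mouse 1 against 432 and 393 in mice 2 and 3. The summed leukocyte markers had 1085, 1494 and 1447 normalized counts, the fibroblast markers 3047, 3970 and 4186 and the mural cell markers 1610, 2002 and 2274, each lowest in mouse 1, while the endothelial markers had 29239, 28097 and 29358. Of the 16 leukocyte markers listed, 12 were lowest in mouse 1, among them Ptprc (CD45) with 94, 190 and 154 normalized counts, while Cd14 was highest there (135, 88 and 108), C1qa was equal in mice 1 and 3 (142, 165 and 142), and Tyrobp (32, 42 and 25) and Cd79a (1, 10 and 0) were lowest in mouse 3. Of the 8 fibroblast and the 8 mural cell markers, 6 and 5 were lowest in mouse 1. Their part in the spread of Irf8 was not tested. The sums of the IFIT genes (2595, 3096 and 2509), by contrast, had mice 1 and 3 close together.

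**Figure D4:**
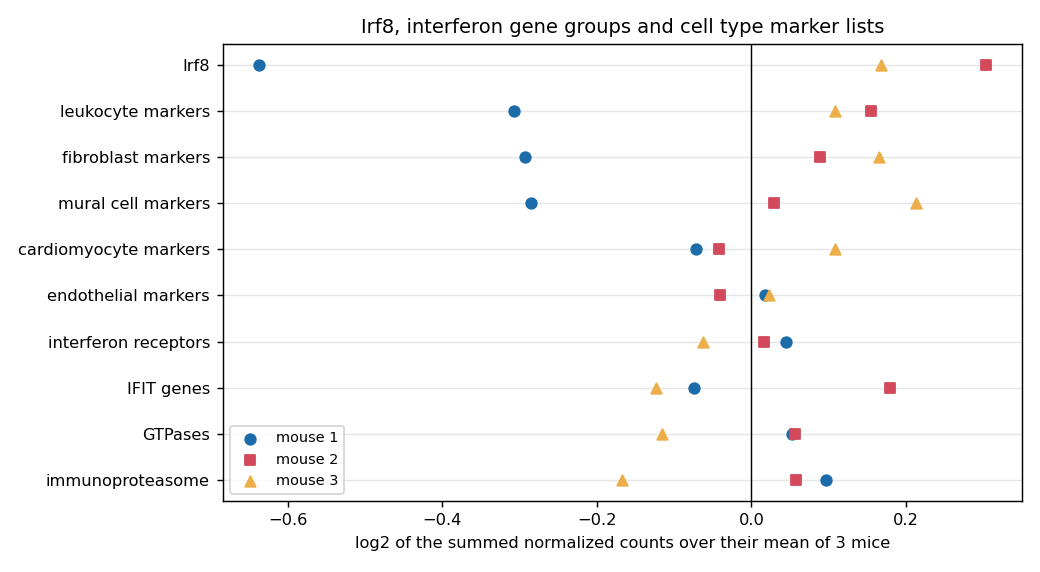
Log2 of the normalized counts of Irf8 and of summed gene lists over their mean of the 3 mice, with 1 point per mouse. Irf8 and the leukocyte, fibroblast and mural cell markers are lowest in mouse 1, the IFIT genes are highest in mouse 2 (3096) and the immunoproteasome sum is lowest in mouse 3 (1742).

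The promoters of the members were searched for the ISRE and the GAS, as a description of sequence. RefSeq promoter sequences (GRCm38.p6, 250 bases before to 50 after the gene start) were at hand for 36 of the 42 members, and not for Iigp1, Ifi27, Parp14, Rtp4, Usp18 and Parp9. The ISRE core was searched as GAAANNGAA on both strands and the GAS core as TTCNNNGAA, which reads the same on both strands. An ISRE core lay in 19 of 36 members (52.8%), against 8.87% of the 12165 genes of the deposited table with a promoter sequence. A GAS core lay in 14 of 36 (38.9%), against 8.30%, and both in 7 of 36 (19.4%), against 1.24%. A core overlapped the other kind in Bst2 and Ifitm3. A match is a run of letters and not a bound site.

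The windows of Isg15 and Ifit1 are shown whole because several cores stand side by side in each, and capitals mark the ISRE cores.
Isg15 promoter window, chr4:156200769-156201068, - strand: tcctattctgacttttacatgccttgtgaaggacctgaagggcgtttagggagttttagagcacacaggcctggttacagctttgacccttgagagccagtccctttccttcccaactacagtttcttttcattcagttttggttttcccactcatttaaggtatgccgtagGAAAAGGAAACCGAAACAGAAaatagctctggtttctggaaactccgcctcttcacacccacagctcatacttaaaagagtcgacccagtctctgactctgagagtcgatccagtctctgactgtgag
Ifit1 promoter window, chr19:34640639-34640938, + strand: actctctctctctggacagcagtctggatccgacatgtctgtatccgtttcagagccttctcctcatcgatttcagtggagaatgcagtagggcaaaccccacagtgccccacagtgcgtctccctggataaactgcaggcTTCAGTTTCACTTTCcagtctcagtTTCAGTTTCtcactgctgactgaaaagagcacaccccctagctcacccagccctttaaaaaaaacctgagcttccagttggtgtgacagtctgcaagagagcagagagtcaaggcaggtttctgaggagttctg

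In Isg15 the ISRE cores read on the strand of the gene and begin 78, 72 and 66 bases before its start, each overlapping the next. In Ifit1 they read on the opposite strand, as TTCNNTTTC, and the first of the 3 overlaps the second. Single stretches from some of the other members with a core follow. The search fixed most letters of a core, so the cores are alike by construction. Capitals mark the core whose distance is given, and in Bst2, Gbp3 and Irgm1 another core, left in lower case where it runs on, overlaps it and begins 130, 38 and 30 bases before the start.
Ifit3, chr19:34583396-34583428, + strand, core 121 bases before the gene start: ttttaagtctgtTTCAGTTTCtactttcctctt
Rsad2, chr12:26456551-26456583, - strand, core 119 bases before the gene start: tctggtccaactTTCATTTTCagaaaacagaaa
Bst2, chr8:71537576-71537608, - strand, core 124 bases before the gene start: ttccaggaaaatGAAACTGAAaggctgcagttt
Gbp2, chr3:142620593-142620625, + strand, core 58 bases before the gene start: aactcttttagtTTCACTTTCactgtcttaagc
Gbp3, chr3:142559988-142560020, + strand, core 44 bases before the gene start: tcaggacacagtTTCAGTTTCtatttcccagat
Gbp7, chr3:142530272-142530304, + strand, core 52 bases before the gene start: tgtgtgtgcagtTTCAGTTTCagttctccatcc
Igtp, chr11:58199510-58199542, + strand, core 34 bases before the gene start: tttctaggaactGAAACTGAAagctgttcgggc
Irgm1, chr11:48871424-48871456, - strand, core 24 bases before the gene start: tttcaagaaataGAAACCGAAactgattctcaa
Ifitm3, chr7:141010705-141010737, - strand, core 19 bases after the gene start: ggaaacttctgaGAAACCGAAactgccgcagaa

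All 3 of the 33-base stretches around a core of Ifit3 recur letter for letter in Ifit3b, where they lie farther from the gene start, with cores at 187, 153 and 134 bases before it instead of 155, 121 and 102. In the 3 guanylate-binding protein genes the cores lie within 58 bases of the start. None of the 4 receptor genes held an ISRE core in its window. Of the 8 members above both other mice in mouse 2 by over 2 counting errors, Irf7, Ifit2 and Oasl2 had no core in the window, and Usp18 had no window. The median log2 ratio of mouse 2 to the others was 0.10 for the 19 members with a core and 0.09 for the 17 without one. Of these, 12 of 19 and 6 of 17 were highest in that mouse, against 32.2% of genes. Whether a core or transcript length has a part in these counts was not tested.

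**Figure D5:**
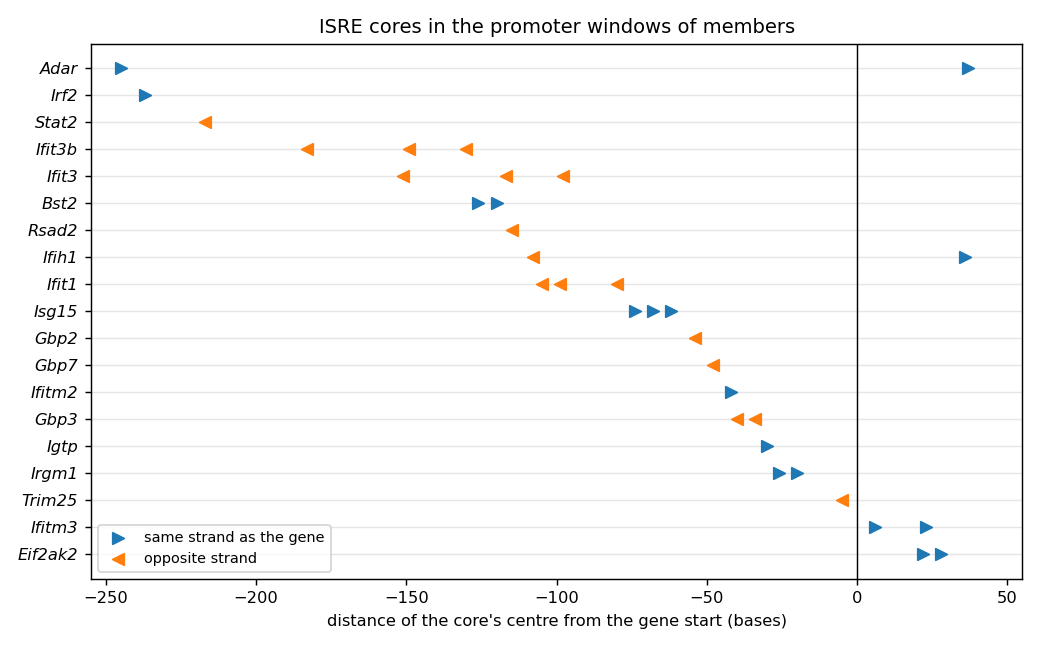
Distance of the centre of each ISRE core from the gene start, in bases, for the 19 members that hold one within 250 bases before to 50 bases after the start. Right-pointing marks are cores on the strand of the gene and left-pointing marks those on the opposite strand. Isg15, Ifit1, Ifit3 and Ifit3b hold 3 cores each.

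In the genome the members lie on 15 chromosomes, and 17 of them fall into 6 groups with neighbours within 200 kb (GRCm39 coordinates of the deposited table). The 4 IFIT genes span 99.3 kb (chr19:34528094-34627409) and Gbp7, Gbp3 and Gbp2 span 108 kb (chr3:142236103-142343769). Ifnar2, Ifnar1 and Ifngr2 share 193 kb (chr16:91169671-91362511), with Il10rb between them, and Ifngr1 lies apart (chr10:19467697-19485977). Parp14, Dtx3l and Parp9 span 140 kb (chr16:35653244-35792975), Ifitm2 and Ifitm3 55.9 kb (chr7:140534750-140590683) and Psmb9 and Psmb8 19.5 kb of the MHC (chr17:34400961-34420428), with the peptide transporter gene Tap1 between them. Levels differed among neighbours: Ifngr2 was 1.12-fold above Ifnar2 per kb, and Gbp2 was 2.91-fold above Gbp7.

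Removal of duplicate reads limits how many single-end reads a base of transcript can keep, which bears on short, abundant genes. Over the length within the deposited bounds, 5 members had over 0.5 reads per base (Ifitm3 0.778, Bst2 0.740, Ifngr1 0.567, Irf1 0.526 and Ifi27 0.519), against 7.57% of genes with a mean of at least 200. How far their levels are understated was not tested.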

How the data were processed

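Ribosome-associated RNA of 3 EC-RiboTag hearts was sequenced as single-end 72-base reads, 3 biological replicates per the labels. Per the submitters' processing notes and the methods, the authors used Trimmomatic 0.39, STAR 2.7.11a (mm39), Picard 3.1.1, featureCounts 2.0.4 and DESeq2 1.36.0. They removed duplicate, multi-mapping, ribosomal and mitochondrial reads, counted by strand, and left out reads over several genes. The deposited values are treated as a score: counts that the authors divided by size factors and rounded to whole numbers, so no count model was fitted. The sums were 7149102, 7158585 and 7268785, and 0 columns belonged to other samples. The worth of 1 read (0.977, 1.06 and 0.961) was estimated from the whole numbers that never occur between 5 and 120, and gave the read totals and counting errors.

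The deposited values were divided by the length of the canonical GENCODE vM39 transcript, known for 17475 genes (99.4%). That annotation is newer than the authors' own, so canonical length was also clipped to the deposited gene bounds. Errors are SDs over mice. Pair ratios were tested by an exact sign-flip permutation test, and spread was examined for genes with a mean of at least 200. Promoters came from RefSeq (GRCm38.p6). Python 3.11.15, numpy 2.4.6, pandas 2.3.3 and matplotlib 3.10.9 were used, and the scripts were tested on simulated data. Alternatives were trimmed-mean and equal-total scaling, joined exon length, no length, the median over mice, and leaving out each mouse. Clipped length, copy-free windows, the CV over 10%, the counting-error rule, the lowest mouse and the length bins were chosen after seeing the data.

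The members and lists were chosen with earlier results of these data known. Values per mouse were printed for members that head or close their role group per kb, belong to a pair or have a CV over 20%, and also for Parp14, Isg15, Usp18 and Oasl2, picked after their values were seen, and for some genes of the pathway and marker lists. The value of a single gene of the pathway lists is left out here.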

Additional observations from a re-analysis of the deposited data

How the results depend on the processing

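All 7 role medians stayed above that of all genes under the alternatives tried, and 40 to 42 members lay above the median gene. Under other scaling, 20 or 21 members were highest in mouse 2 and 31 to 33 lowest in mouse 3, counts that were not made with a mouse left out. Length mattered most. The median level of the members was 157 per kb over joined exons and 321 over clipped lengths, and 34 and 13 of the 42 levels moved by over 1 SD, against 0 under each of the other 6 settings. Over joined exons the log2 ratio of Ifnar1 to Ifnar2 turned to -0.33 and that of Ifit3 to Ifit3b to -0.061. That of Irf2 to Irf1 widened to -1.41, and that of Psmb10 to Psmb7 to 1.99. Without division by length that of Psmb9 to Psmb6 was 0.12, and those of Ifngr1 to Ifngr2, Ifngr1 to Ifnar1 and Irf9 to Stat2 shrank to 0.53, 0.10 and 0.19. The ratio of Psmb10 to Psmb7 was also -0.14 over windows without a copy and ranged from -0.043 (without mouse 1) to 0.067 when single mice were left out. The members with a CV over 20% numbered 1 to 3 when single mice were left out, 3 without mouse 1 (Ifit1, Usp18 and Rsad2) and 3 without mouse 3 (Irf7, Irf8 and Ifit1). No share of all genes is set beside the counts with a mouse left out. Over all 3 mice 14 members had a CV over 10%, against 32.1% of genes. The members highest in mouse 2 fell from 21 to 8 when over 2 counting errors were asked for, a stricter rule by construction. Where no construction is named, the cause was not tested. With 3 mice no exact test can go under 0.25. Depth limits the level of genes such as Ifnb1, with at most 6 normalized counts, more than those of the members, all of which had a mean of at least 200. It also limits what the small CVs of members show, as for Parp14, with 1.21% against 2.66% estimated from read counting alone. No paired analysis was possible because the series holds a single group.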
